A study of Mus musculus with 20 samples.

Results

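DEAD and DEAH box RNA helicases are ATP-driven enzymes that unwind RNA or strip proteins from it. They were followed here in mouse oocytes leaving prophase arrest. Members were all genes with a Ddx or Dhx symbol followed by a number in either deposited table, which gave 45 of 8114 genes, 32 with a Ddx symbol and 13 with a Dhx symbol. The ribosome-bound table held 43 of them among 7543 genes. The total RNA table held all 45 among 7917 genes, and Ddx49 and Dhx34 were listed only there. The rule used symbols and no measured value. Both tables are limited to genes above a minimum (each gene in them has a value of 10 or more somewhere), so counts below cover listed helicases and not the whole family.

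All oocytes came from C57BL/6 females, 3 weeks old, that were Zp3-Cre+ and RiboTag. Zp3-Cre acts in growing oocytes, and RiboTag is an allele that puts an HA tag on a ribosomal protein once Cre has acted, so that tagged ribosomes can be pulled down with their mRNA. Females received 5 IU PMSG, a gonadotropin, and 44 h later oocytes were freed of cumulus cells and held in 1 µM cilostamide, a phosphodiesterase inhibitor that keeps them in prophase I. They were then moved to medium without it and pooled, 200 per sample, after 0, 2, 4, 6 or 8 h. The series design places 0 h in prophase I, the times from 2 to 6 h in early, mid and late prometaphase I, and 8 h in metaphase I. Ribosome-bound mRNA and total RNA were sequenced from 2 samples per time, which gave 10 groups and 20 libraries. No group lacked the tag or the Cre. The study compared how the ribosome-bound and total RNA pools change as meiosis resumes.

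Helicases of these families share a core that closes around RNA when ATP is bound. DEAD box members open short duplexes locally and act at nearly each step of an mRNA's life, from splicing and nuclear export to storage, initiation of translation and decay. DEAH box members move along RNA, and several drive the steps of the spliceosome. Fully grown oocytes are nearly silent in transcription, so a gene's ribosome-bound mRNA can change there without new synthesis. A few genes with a Ddx symbol belong to neighbouring helicase families by sequence, such as Ddx11, Ddx58 and Ddx60.

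One sequence feature that bears on stored oocyte mRNA is the cytoplasmic polyadenylation element, a U-rich 3′ UTR motif bound by CPEB proteins. The letters TTTTAT or TTTTAAT, written as DNA, were searched in the last 100 bases of each representative transcript's 3′ UTR, on the transcript's own strand. Neither motif contains the other. At least 1 of the motifs was found in 1501 of 6961 genes with such a 3′ UTR (21.6%) and in 12 of 42 helicases (28.6%). Among helicases whose ribosome-bound level rose from 0 to 8 h it was found in 4 of 8, against 36.6% of all genes that rose. Among helicases that fell it was found in 2 of 13, against 10% of all genes that fell. Among helicases called neither way it was found in 6 of 21, against 20.4% of such genes. The 4 rises with a motif, Ddx3x, Ddx10, Ddx19b and Dhx36, were not called once GC content and transcript length were corrected for. Ddx5, Ddx39 and Dhx57, the rises still called then, had no motif. The part of base composition in these shares was not tested. The stretches around the motifs in those 6 helicases are shown because they let the reader see how the motif sits in members that moved in opposite directions. Sequences are from GENCODE vM21 (GRCm38, the mm10 build), run 5′ to 3′ along the transcript, and have the motif in capitals. All lie in the last exon, within the 3′ UTR.
Ddx3x, rose, chrX:13293953-13293982, plus strand: tggTTTTATtaaaataaaaagttgaactgc
Ddx10, rose, chr9:53098660-53098689, minus strand: acaaagaattttTTTTAATtgagttcataa
Ddx19b, rose, chr8:111003223-111003252, minus strand: gtcacacacaaaTTTTATtttttaagactt
Dhx36, rose, chr3:62468025-62468054, minus strand: gcatttttactgTTTTATgaataaagctgc
Ddx1, fell, chr12:13216990-13217019, minus strand: ttgtggaatataTTTTATgaattaaaatag
Ddx25, fell, chr9:35536647-35536676, minus strand: caataaagatattaacctTTTTATtgaaaa
The motif began 97 bases before the transcript end in Ddx3x, 43 in Ddx10, 53 in Ddx19b, 30 in Dhx36, 35 in Ddx1 and 12 in Ddx25. In Dhx36 another copy began 100 bases before the end. In Dhx36, which rose, and in Ddx1, which fell, the printed copy is followed closely by a polyadenylation signal. It starts 23 bases before the end in Dhx36 and 27 in Ddx1. In Ddx25, which also fell, the motif lies after one. In Ddx10 and Ddx19b, which rose, the motif lies before a signal that starts 22 bases before the end. In Ddx3x, which rose, the motif overlaps signal letters starting 93 bases before the end, and another signal starts at 23. With 4 rises and 2 falls, these layouts cannot show whether rises and falls differ. A match is a description of these letters and not a mapped site, and 3′ ends used in oocytes can differ from the annotation.

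The depth inferred for listed genes was 27571236 to 51714900 reads per library, so a value of 10 stood for 282 to 533 reads. Nothing in the labels says whether replicates came from separate mice, so p-values measure the spread between these samples. Replicates correlated at 0.949 to 0.974 across genes. The first 4 h ribosome-bound library stood apart on the second principal component (-35.2, next lowest -4.88). The 8 h total RNA libraries lay at 20.2 and -25 on that of their own table. All 10 oocyte markers were listed in both tables, with sums of 14536 to 16668 in total RNA. On ribosomes the sum was 51635 and 42497 at 0 h and 23054 and 26280 at 8 h, and 8 of the 10 fell and 2 rose. Its part in the helicase changes was not tested. Of 13 granulosa and cumulus markers, 4 were listed on ribosomes (Cyp19a1, Fshr, Nr5a2 and Serpine2) and 6 in total RNA. Amh and Foxl2 were among those not listed in either table. Of the 4 on ribosomes, Serpine2 (1.74) and Cyp19a1 (1.31) rose by 8 h and 2 did not pass, beside 20.2% of all genes that rose. The sum of the 4 on ribosomes was 199 and 207 at 0 h and 524 and 529 at 8 h, and its part in the helicase changes was not tested. The 2 listed of 10 markers of blood, stroma and endothelium summed to 106 to 189 on ribosomes, and 4 listed of 9 stress genes to 622 to 1007, highest at 0 h.

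Values below are the deposited normalised values, a scaled CPM, and each pair gives the first and the second replicate library. Changes are differences of log2(value + 1) with their standard error from limma. A change passed where the Benjamini-Hochberg adjusted p over all genes of the table was under 0.05, and only such changes are called a rise or a fall. Values are relative to the rest of a library, so more mRNA of 1 gene and less of the others cannot be told apart, nor can fewer cells of a type and less RNA per cell.

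A pair of genes made up a large part of the helicase mRNA on ribosomes. Per kilobase of transcript, Ddx19a (mean 293.3) and Ddx3x (mean 254.4) led at 0 h. The next was Ddx41 at 45.4, followed by Dhx29 at 32.4 and Ddx46 at 32.1. At 8 h Ddx3x led with 451.6, ahead of Ddx19a at 147.6, Ddx5 at 83.3 and Dhx57 at 39.1. Ddx3x alone went from 29.7% to 46.8% of the summed helicase value. In total RNA the same pair led at 0 h, Ddx3x at 173.7 and Ddx19a at 138.1 per kilobase, and their order was turned at 8 h, at 131.2 and 161.0.

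Together the listed helicases made up 0.376% and 0.435% of the ribosome-bound table's total at 0 h and 0.433% and 0.446% at 8 h, with the highest shares, 0.518% and 0.505%, at 4 h. In total RNA the share stayed between 0.307% and 0.365% in the 10 libraries. Without Ddx3x the ribosome-bound share went from 0.270% and 0.300% at 0 h to 0.236% and 0.232% at 8 h, and these libraries did not overlap. The summed value behind that share went from 2719 and 2933 to 2372 and 2440. Ddx19a alone went from 771 and 723 to 402 and 350, which makes up most of that drop. The drop is net of rises such as that of Ddx5, so the sum cannot tell whether the other helicases declined in common. By sign alone, 27 of the 43 listed helicases had a change below 0 at 8 h and 16 above.

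By 8 h, ribosome-bound mRNA of 8 helicases had risen and that of 13 had fallen. These 21 are 48.8% of the 43 listed, and 42.1% of all genes passed in the same comparison, 20.2% up and 21.8% down. The count is therefore near the background. The helicase median was -0.39, and that of all genes was -0.06. Changes ran from -1.75 (Ddx20) to 2.00 (Ddx5), and 11 of the 21 were at least 2-fold. Of 31 Ddx genes 6 rose and 11 fell, and of 12 Dhx genes 2 rose and 2 fell. The 8 rises were Ddx5, Ddx60, Ddx39, Dhx57, Ddx3x, Dhx36, Ddx19b and Ddx10.

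The split between rises and falls shifted once GC content and transcript length were accounted for. With each library corrected for both, 3 helicases rose (Ddx5, Ddx39 and Dhx57) and 15 fell, and of all genes 16.9% rose and 20% fell in the same fit. The rises of Ddx3x, Dhx36, Ddx19b, Ddx60 and Ddx10 and the falls of Ddx56, Ddx41 and Dhx16 no longer passed, and Ddx6, Dhx29, Dhx9, Ddx50 and Ddx52 passed as falls. The corrected change of Ddx3x at 8 h was 0.24 (adjusted p = 0.126). Without the second 8 h library 11 passed, 4 up and 7 down. Calls for Ddx5, Dhx57, Ddx19a, Ddx27, Dhx40, Ddx11 and Ddx1 held under every alternative run.

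**Figure D1:**
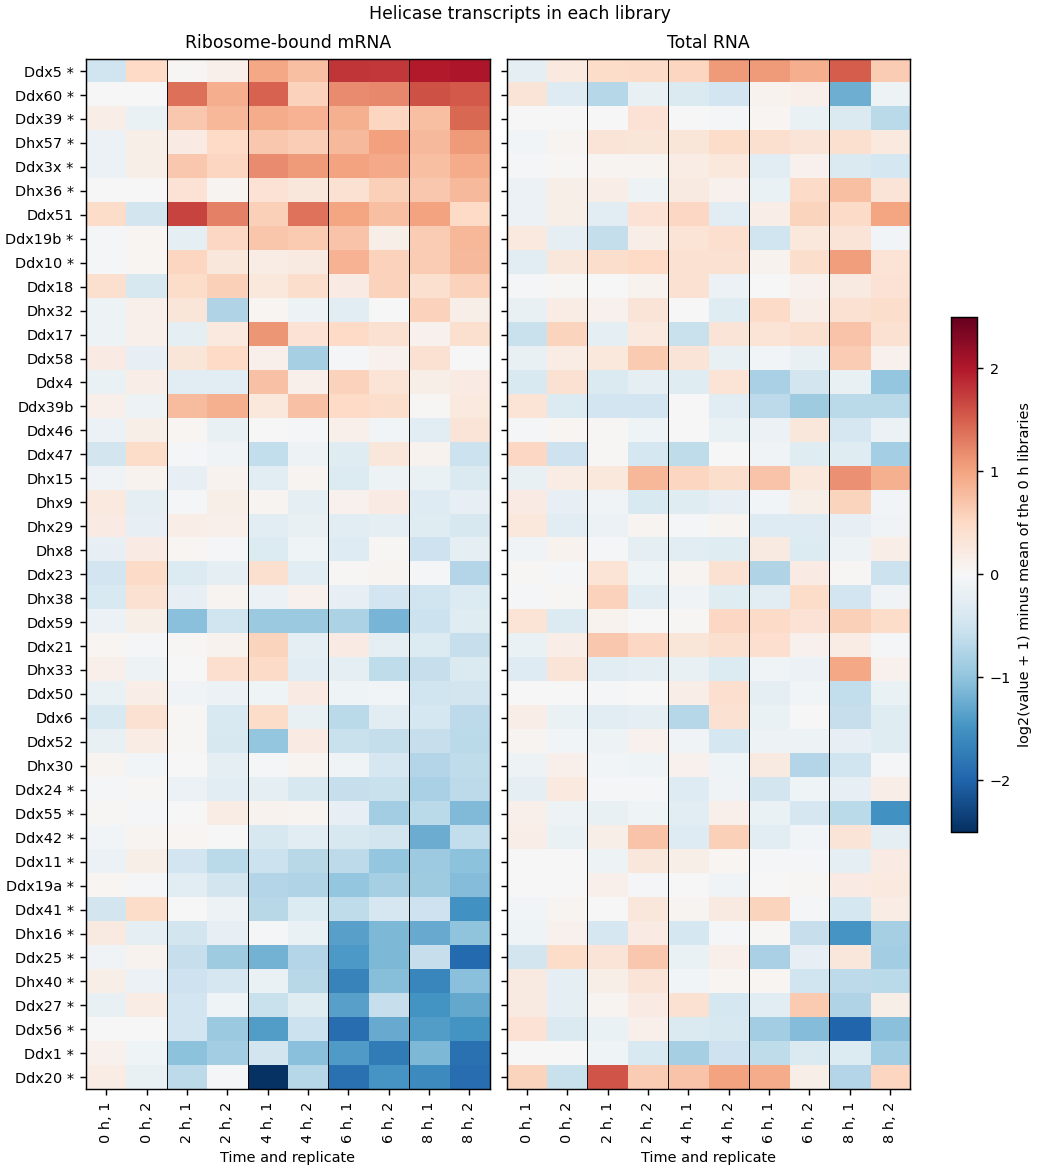
Level of each of the 43 helicases listed in both tables, as log2(value + 1) minus the mean of the 2 libraries at 0 h of the same RNA kind, in each library. Columns give time and replicate, rows are ordered by the change on ribosomes at 8 h, and stars mark the 21 that passed the test there. On ribosomes the rows from Ddx5 to Ddx10 are red at 8 h and those from Ddx24 to Ddx20 blue, and many of the starred rows have paler colours in total RNA.

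Helicases are taken below by role, and at 8 h on ribosomes 20.2% of all genes rose and 21.8% fell. Ddx39b is counted with the spliceosome and with nuclear export. Dhx9 is counted with RNA sensing and with the group of DNA and transcription. Neither passed at 8 h. Among helicases that act when translation starts, Ddx3x rose and Dhx29 did not pass. Ddx3x unwinds structured 5′ UTRs and lies on the X chromosome (13280970 to 13294052, plus strand). Its ribosome-bound value was 1070 and 1317 at 0 h, 1887 and 1719 at 2 h, 2692 and 2495 at 4 h, 2385 and 2279 at 6 h, and 1988 and 2250 at 8 h. The peak was thus at 4 h, and every later library lay above both at 0 h. Its change was 0.60 ± 0.13 at 2 h (adjusted p = 0.0304), 1.13 ± 0.13 at 4 h (adjusted p = 2.76e-05) and 0.83 ± 0.13 at 8 h (adjusted p = 9.85e-05). Ddx3x was the single helicase to pass at 2 h, where 1.47% of all genes passed, 0.729% up and 0.742% down. That early call was lost without the first 0 h library (0.45), the first 2 h library (0.53) or the second 2 h library (0.67). Total RNA of Ddx3x was at 793 and 837 at 0 h, 921 and 980 at 4 h, and 632 and 599 at 8 h (change -0.40, adjusted p = 0.0781). With the length and GC correction this 8 h change passed as a fall (-0.55, adjusted p = 0.0127).

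Dhx29 binds the small ribosomal subunit and helps it scan structured leaders. It was at 174 and 129 on ribosomes at 0 h and at 122 and 114 at 8 h (-0.35 ± 0.18, adjusted p = 0.129). Its libraries did not overlap, and with the length and GC correction the change passed at -0.48 (adjusted p = 0.0407).

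Under storage and germline, a loose heading that also takes in Dhx36 and Ddx20, 5 of 7 helicases were listed. Of these 1 rose and 2 fell, beside 20.2% and 21.8% of all genes. Dhx36, which unwinds G-quadruplexes, went from 48.3 and 48.4 to 78 and 86.1 (0.75 ± 0.21, adjusted p = 0.00941). The call was lost without the second 8 h library (0.68), and the change was 0.08 with the length and GC correction. Ddx20, a component of the SMN complex that assembles splicing particles, fell from 18 and 13.5 to 4.5 and 3.41 (-1.75 ± 0.57, adjusted p = 0.0203). Its values of 10 or more on ribosomes are all from 0 and 2 h, so the gene was in that table through its earlier libraries, which favours a fall. Ddx25, a germ cell helicase known from the testis, fell from 17.2 and 19.5 to 12 and 4.03 (-1.25 ± 0.49, adjusted p = 0.046). Both are among the lowest listed helicases. The Ddx20 call was lost without the first 0 h library (-1.55) or either 8 h library (-1.91 and -1.59), and that of Ddx25 without either 0 h library (-1.34 and -1.17) or the second 8 h library (-0.57).

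The best known members of the same group did not pass. Ddx4, the germline helicase Vasa of the piRNA pathway, was at 26.5 and 33.9 on ribosomes at 0 h and at 33.4 and 34.7 at 8 h (0.18 ± 0.28, adjusted p = 0.645). Its groups overlapped. Ddx6, which represses translation and promotes decapping in storage granules, was at 23.2 and 40.5 at 0 h and at 22.3 and 19.2 at 8 h (-0.55 ± 0.34, adjusted p = 0.213). The 0 h libraries of Ddx6 differed from each other by more than the groups' nearest libraries did. With the length and GC correction Ddx6 passed as a fall (-0.99, adjusted p = 0.031) and the sign of Ddx4 turned (-0.30).

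**Figure D2:**
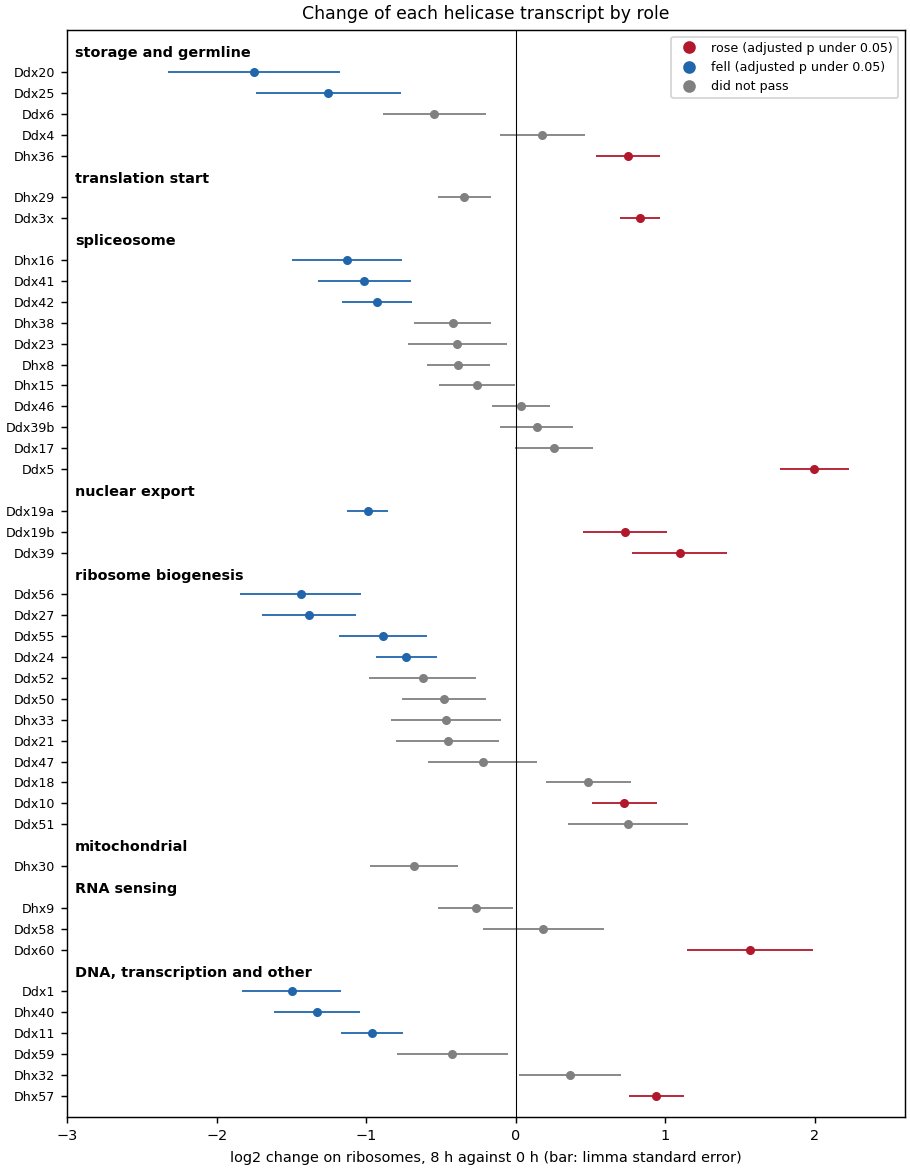
Change of each listed helicase on ribosomes from 0 to 8 h (log2, bars are limma standard errors, 2 libraries per time), grouped by role and drawn once per gene. Red points rose and blue points fell at an adjusted p under 0.05. No group with more than 1 listed gene lies wholly on the rising side, and Ddx5 stands at the far right at 2.00.

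Of the 11 listed spliceosome helicases 1 rose and 3 fell, beside 20.2% and 21.8% of all genes. Ddx5 is a coactivator and splicing helicase on chromosome 11 (106780355 to 106789185, minus strand). On ribosomes it was at 52 and 104 at 0 h, 75.3 and 80.8 at 2 h, 144 and 124 at 4 h, 256 and 253 at 6 h, and 293 and 300 at 8 h. The 2 h libraries lay between those of 0 h, and each later library lay above them. The 8 h change was 2.00 ± 0.23 (adjusted p = 3.82e-06), and 1.51 without the first 0 h library, which held the lowest value. About 22.7% of the 50-base words of its transcript also occur in other annotated transcripts, chiefly Gm12183, and how such reads were counted is not given in the sources used here. Its close paralogue Ddx17 was at 48.3 and 58.4 at 0 h and at 57.1 and 70.5 at 8 h (0.25 ± 0.26, adjusted p = 0.458), with overlapping groups.

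The 3 spliceosome helicases that fell were Dhx16, Ddx41 and Ddx42. Dhx16 is the ATPase that activates the assembled spliceosome. It went from 26.7 and 19.1 to 8.9 and 10.8 (-1.13 ± 0.37, adjusted p = 0.0195). Ddx41, found with the spliceosome at its catalytic stage, went from 68.8 and 132 to 66.6 and 32.6 (-1.01 ± 0.31, adjusted p = 0.014). Here the replicates spread widely, and 13.9% of its exon bases overlap an antisense gene model. Ddx42, a helicase linked to the branch-site recognition complex, went from 72.1 and 80.2 to 31.4 and 49.5 (-0.93 ± 0.24, adjusted p = 0.00436).

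Each of these 3 calls was lost in some fits without 1 library. That of Dhx16 was lost without the first 0 h library (-0.90) or either 8 h library (-1.0 and -1.25). Ddx41 lost its call without the second 0 h library (-0.55) or the second 8 h library (-0.51), and Ddx42 without the first 8 h library (-0.61). The other 7 did not pass. Ddx46, which acts early in branch-site recognition, was at 163 and 202 at 0 h and at 152 and 227 at 8 h (0.03 ± 0.19, adjusted p = 0.908). Dhx15, which takes spliceosomes apart, was at 42.3 and 48.4 and then at 40.5 and 34.8 (-0.26 ± 0.26, adjusted p = 0.433). The remaining ATPases of the splicing cycle, Ddx23, Dhx8 and Dhx38, had changes of -0.39, -0.38 and -0.42.

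All 4 nuclear export helicases were listed, of which 2 rose and 1 fell, beside 20.2% and 21.8% of all genes. Ddx19a and Ddx19b both remodel mRNPs at the cytoplasmic face of the nuclear pore, and they are neighbours on chromosome 8 (110974996 to 110997800 and 111003188 to 111031751, minus strand). Ribosome-bound Ddx19a was at 771 and 723 at 0 h, 615 and 545 at 2 h, 446 and 441 at 4 h, 381 and 418 at 6 h, and 402 and 350 at 8 h. Every library from 2 h on lay below both at 0 h. The change was -0.75 ± 0.14 at 4 h (adjusted p = 0.00133) and -0.99 ± 0.14 at 8 h (adjusted p = 2.56e-05).

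Ddx19b was at 33.8 and 36.4 at 0 h and at 54.9 and 63.3 at 8 h (0.73 ± 0.28, adjusted p = 0.0434). Its call was lost when any 1 of the 4 libraries was left out (0.63 to 0.83). The paralogues thus had opposite signs, although 33.3% of the 50-base words of Ddx19a and 12.7% of those of Ddx19b are shared between them. Ddx39, an export helicase close to Ddx39b, went from 17.9 and 13.9 to 27.1 and 44.6 (1.10 ± 0.32, adjusted p = 0.0102). Without the second 0 h library its change was 0.92 and without the second 8 h library 0.75, neither past the threshold. An antisense gene, Adgre5, overlaps 20.8% of the exon bases of Ddx39, and the strand setting of the counting is not given in the sources used here. Ddx39b, which loads the export complex on spliced mRNA, was at 40.5 and 34.2 at 0 h, 64.8 and 70 at 2 h, and 38.1 and 44.3 at 8 h (8 h change 0.14 ± 0.24, adjusted p = 0.673).

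Of the helicases of ribosome biogenesis, 12 were listed on ribosomes, of which 1 rose and 4 fell, beside 20.2% and 21.8% of all genes. Ddx10 and the 4 that fell, Ddx27, Ddx56, Ddx55 and Ddx24, act in the nucleolus on pre-rRNA or pre-ribosomal particles. Ddx27 went from 41 and 52.7 to 15.9 and 18.5 (-1.39 ± 0.31, adjusted p = 0.00189). Ddx56 went from 28.8 and 29.4 to 10.5 and 9.72 (-1.44 ± 0.40, adjusted p = 0.00826), and without the second 8 h library its adjusted p was 0.051. In neither gene did the groups overlap, as in every helicase called at 8 h.

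Ddx24 went from 84.8 and 88.7 to 49 and 54.8 (-0.73 ± 0.20, adjusted p = 0.00785), and its call was lost without the first 8 h library (-0.65). Ddx55 went from 37.9 and 36.4 to 22.9 and 16.8 (-0.89 ± 0.30, adjusted p = 0.0227), and kept its call in 1 of 4 fits without a library, that without the first 8 h library. Ddx10 was the exception in sign: 43.1 and 46.5 at 0 h and 70.2 and 79.5 at 8 h (0.73 ± 0.22, adjusted p = 0.013). Its call was lost without the second 8 h library (0.64).

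The other 7 did not pass. Ddx21, a nucleolar helicase of rRNA transcription and processing, was at 23.2 and 21.8 at 0 h and at 17.6 and 14.7 at 8 h (-0.46 ± 0.34, adjusted p = 0.298), and its paralogue Ddx50 had a change of -0.48. Ddx51, at 13.7 and 6.74 at 0 h and 20.5 and 14 at 8 h, had a change of 0.75 ± 0.40 (adjusted p = 0.144). For Ddx18, 62.7% of the 50-base words occur in other transcripts, chiefly Gm16433, so its values (change 0.48) are uncertain.

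Dhx30, which serves mitochondrial ribosome assembly, was the only listed mitochondrial helicase, at 30.3 and 27.7 at 0 h and 17 and 18.4 at 8 h (-0.68 ± 0.30, adjusted p = 0.0727). Of 3 RNA-sensing helicases 1 rose, beside 20.2% of all genes. Ddx60, an interferon-induced factor, went from 5.36 and 5.46 to 18.3 and 17.6 (1.56 ± 0.42, adjusted p = 0.00646). Its 0 h values lie under the 10 that a listed gene has to reach in some library, so the gene was in the table through its later libraries, which favours a rise. Without Ddx20 and Ddx60, the genes with both libraries of a compared time under 10, 7 of 41 helicases rose at 8 h and 12 fell. The corrected change of Ddx60 for length and GC was 0.92 (adjusted p = 0.089). Ddx58, the viral RNA sensor RIG-I, and Dhx9, a helicase of double-stranded RNA and of transcription, had changes of 0.18 and -0.27 (adjusted p = 0.742 and 0.406) and overlapping groups.

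In the group of DNA, transcription and less known helicases, 7 were listed. Of these 1 rose and 3 fell, beside 20.2% and 21.8% of all genes. Dhx57, whose function is little known, was at 89.2 and 111 at 0 h, 160 and 153 at 4 h, and 176 and 209 at 8 h (0.94 ± 0.18, adjusted p = 0.000531). Antisense models, Morn2 among them, overlap 7.94% of its exon bases. Ddx1, part of the tRNA ligase complex, went from 56.6 and 48 to 25.2 and 28.1 at 2 h and 23.3 and 13.5 at 8 h (8 h change -1.50 ± 0.33, adjusted p = 0.00158). Dhx40 went from 85.7 and 69.1 to 24.3 and 36.9 (-1.33 ± 0.29, adjusted p = 0.00127). Ddx11, a DNA helicase of sister chromatid cohesion, went from 107 and 130 to 62.4 and 57.5 (-0.96 ± 0.21, adjusted p = 0.00127). None of these 4 genes had overlapping groups, which is true of all 21 helicases called at 8 h and does not set them apart. All 4 passed with each of the 4 libraries left out in turn.

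The calls on ribosomes built up over time. At 4 h, 3 helicases had risen (Ddx3x, Ddx5 and Dhx57) and 1 had fallen (Ddx19a), with 15.7% of all genes past the threshold, 9.16% up and 6.56% down. At 6 h, 5 had risen and 9 had fallen, with 27.9% of all genes past it, 14.6% up and 13.3% down. Ddx20, Ddx25, Ddx60 and Dhx16 had both libraries of 0 h or of 6 h under 10. Without them 4 of 39 had risen at 6 h and 7 had fallen. Of the 21 called at 8 h, Ddx3x was called at each of the 4 times, Ddx5, Dhx57 and Ddx19a from 4 h on, 10 from 6 h on and 7 at 8 h alone. The other 22 listed helicases were called at none. The comparisons share their 0 h libraries, so they are not independent of each other.

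At 4 h the change of Ddx5 was 0.85 ± 0.23 (adjusted p = 0.0189) and that of Dhx57 0.65 ± 0.18 (adjusted p = 0.0208). The Ddx5 call was lost without the first 0 h library (0.36) or the first 4 h library (0.75), and with the length and GC correction (0.57, adjusted p = 0.101). The Dhx57 call was lost without the first 0 h library (0.50) or either 4 h library (0.62 and 0.69). Without the first 4 h library, which stood apart, Ddx3x and Ddx19a were the calls left at that time. At 6 h the largest rises were those of Ddx5 (1.78 ± 0.23), Ddx60 (1.19 ± 0.42) and Ddx3x (0.97 ± 0.13), and the largest falls those of Ddx20 (-1.67 ± 0.57), Ddx56 (-1.58 ± 0.40) and Ddx1 (-1.58 ± 0.33). Ddx60 at 0 h and Ddx20 at 6 h lie under 10 in both libraries, so their places in this order rest on the group through which each was listed. The 6 h calls of Ddx60 and Ddx20 were lost whichever of the 4 libraries was left out, and that of Ddx56 without the first 6 h library (-1.26). The count of 14 at 6 h was 7 without the first 6 h library, 9 without the second and 9 without the second 0 h library. With the length and GC correction 11 passed at 6 h, 4 up and 7 down, against 24% of all genes, and Ddx27, Dhx16, Ddx60 (0.71), Ddx24 and Ddx10 were lost.

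**Figure D3:**
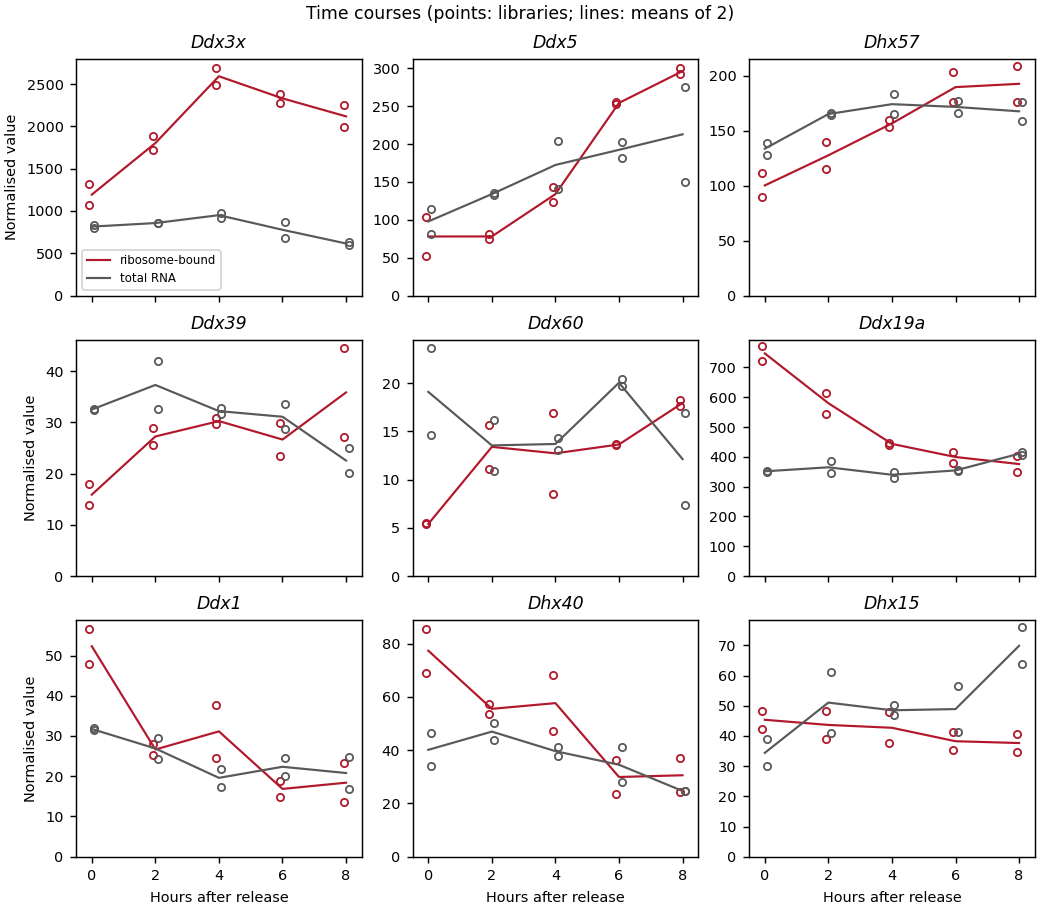
Deposited normalised values of 9 helicases against hours after release, for ribosome-bound mRNA (red) and total RNA (grey). Circles are single libraries, lines join the means of 2, and each vertical axis starts at 0 with its own range. Ddx3x peaks on ribosomes at 4 h while its total RNA stays between 599 and 980, and Ddx19a falls on ribosomes while its total RNA stays between 330 and 415.

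Few helicase changes passed in total RNA. In limma, 0 of 45 passed at 2, 4 or 6 h, where 0%, 0% and 0.202% of all genes passed, and 1, 3 and 5 helicases had an unadjusted p under 0.05. The 0.202% at 6 h was 0.177% up and 0.0253% down. At 8 h, 2 rose and 1 fell, and 3.97% of all genes passed, 0.947% up and 3.02% down. The helicase median was -0.13, against 0.01 over all genes. Ddx5 went from 81.7 and 114 at 0 h to 276 and 150 at 8 h (1.07 ± 0.24, adjusted p = 0.0138). Dhx15 went from 29.9 and 38.9 to 76 and 63.7 (1.01 ± 0.25, adjusted p = 0.0284). Ddx56 went from 31.8 and 18.8 to 5.49 and 11.4 (-1.50 ± 0.39, adjusted p = 0.0315).

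None of these 3 calls held with each library left out. Ddx5 lost its call without the first 0 h library (0.83) or the first 8 h library (0.63), Ddx56 without the same ones (-1.14 and -1.03). Dhx15 lost its call without either 0 h library (0.82 and 1.19) or the first 8 h library (0.88). No helicase passed without the first 0 h library, and 1 did without the first 8 h library. The libraries do not tell synthesis, decay and a change in tail length apart, and whether poly(A) RNA was selected is not given in the sources used here.

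The difference between the change on ribosomes and the change in total RNA was tested directly, over the 7346 genes in both tables. It passed for 6 of 43 helicases, 14%, against 21% of all genes, 11.6% up and 9.43% down. Of the helicases 3 were positive and 3 negative. Ddx60 (2.25 ± 0.58, adjusted p = 0.00704), Ddx39 (1.61 ± 0.40, adjusted p = 0.00579) and Ddx3x (1.24 ± 0.18, adjusted p = 2.63e-05) changed upward on ribosomes relative to total RNA. Dhx15 (-1.27 ± 0.36, adjusted p = 0.0133), Ddx19a (-1.21 ± 0.17, adjusted p = 2.42e-05) and Ddx11 (-0.95 ± 0.28, adjusted p = 0.019) changed downward.

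The 6 genes reached this difference in several ways. Ddx19a fell on ribosomes, and its total RNA was at 349 and 354 at 0 h and at 406 and 415 at 8 h (0.22, adjusted p = 0.363). Ddx11 in total RNA was at 90.1 and 89, then at 75.7 and 103 (-0.02, adjusted p = 0.977). Dhx15 differed mainly through its rise in total RNA. For Ddx39, total RNA was at 32.4 and 32.6, then at 25 and 20.1 (-0.52, adjusted p = 0.313). Total RNA of Ddx60 was at 23.6 and 14.6, then at 7.37 and 16.9 (-0.68, adjusted p = 0.387). With the length and GC correction the difference for Ddx3x was 0.79, made up of 0.24 on ribosomes and -0.55 in total RNA. Ddx3x and Ddx19a kept this call with any of the 8 libraries left out.

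Calls for the other 4 were less stable. That of Ddx60 was lost without the first 8 h total RNA library (1.70), and that of Ddx39 without the second 8 h ribosome-bound library (1.26). Dhx15 lost its call without the second 8 h ribosome-bound library (-1.16), the first 0 h total RNA library (-1.09) or the first 8 h total RNA library (-1.14). Ddx11 lost it in 5 of the 8 fits, where its change ran from -0.72 to -0.96: without the second 0 h or 8 h ribosome-bound library, either 0 h total RNA library or the second 8 h total RNA library. Ddx5, which rose in both kinds of RNA, had a difference of 0.93 ± 0.37 that did not pass (adjusted p = 0.0744).

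**Figure D4:**
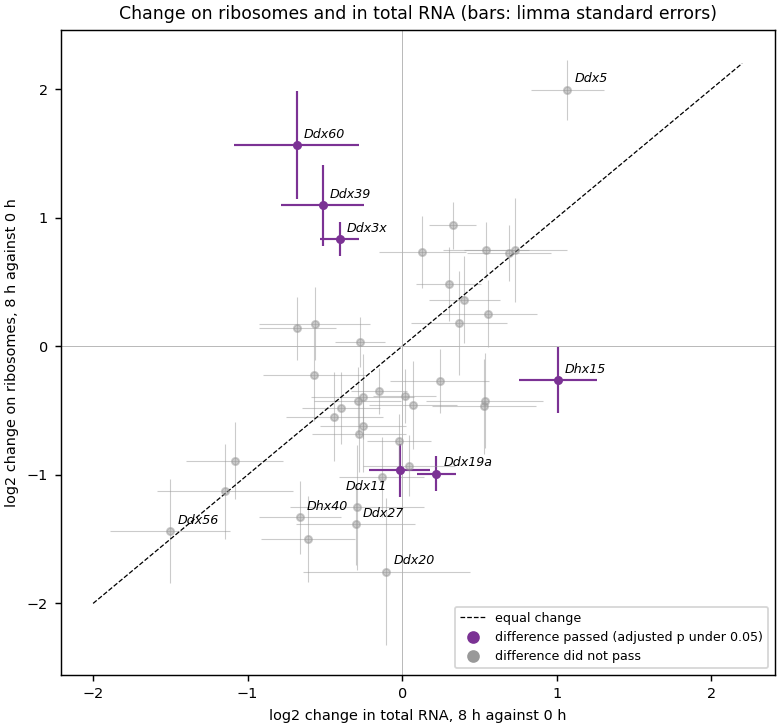
Change on ribosomes (vertical) against change in total RNA (horizontal) from 0 to 8 h for the 43 helicases in both tables, in log2 with limma standard errors as bars. Purple points are the 6 whose difference passed, grey points did not pass, and the dashed line marks equal change. Ddx60, Ddx39 and Ddx3x lie above the line, and Ddx19a, Ddx11 and Dhx15 below it.

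Levels in the 2 tables were normalised separately, so their ratio is given only as a description. At 0 h the log2 ratio of the ribosome-bound to the total RNA value was highest for Ddx41 (1.34), Ddx20 (1.09) and Ddx19a (1.08), and lowest for Ddx60 (-1.65), Ddx18 (-1.03) and Ddx51 (-1.03). At 8 h it was 1.78 for Ddx3x, from 0.55 at 0 h, and -0.12 for Ddx19a.

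Genes that work with these helicases were counted in the same ribosome-bound comparison at 8 h, where 20.2% of all genes rose, 21.8% fell and the median was -0.06. Of 12 listed partners of Ddx6 in mRNA storage and decapping, 4 rose and 5 fell. They included rises of the decapping cofactor Dcp1a (1.03 ± 0.13, adjusted p = 1.01e-05) and the storage granule protein Lsm14a (0.81 ± 0.14, adjusted p = 0.000236). Falls included the oocyte mRNA-binding proteins Ybx2 (-1.36 ± 0.15, adjusted p = 2.7e-06) and Zar1 (-1.40 ± 0.16, adjusted p = 3.45e-06). Of 8 listed partners of Ddx4 in the piRNA pathway none rose and 6 fell, with a median of -0.72, among them Gtsf1 (-1.33 ± 0.21) and Tdrd7 (-1.44 ± 0.28). Ddx4 itself did not pass.

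Of 8 listed genes around eIF4A, the founding DEAD box helicase of translation, 0 rose and 3 fell, among them the oocyte cap-binding protein Eif4e1b (-1.16 ± 0.15) and the scaffold Eif4g1 (-0.50 ± 0.17). Over all genes 20.2% rose and 21.8% fell, and the counts of the next 3 lists stand beside those shares. Of 19 listed helicases of related families without a Ddx or Dhx symbol 2 rose and 8 fell, with a median of -0.48. The rises were those of Supv3l1, a mitochondrial RNA helicase (1.01 ± 0.21), and Helz (0.94 ± 0.22). Falls included Tdrd9 of the piRNA pathway (-1.38 ± 0.22) and Eif4a3 of the exon junction complex (-1.0 ± 0.23). Of 11 listed partners of Ddx39b and export factors 3 rose, Gle1 (1.71) and Thoc2 (1.18) among them, and 3 fell, Thoc3 (-1.09) and Thoc5 (-1.19) among them. Gle1 activates the Ddx19 helicases at the pore. Of 11 listed G-patch cofactors, proteins that stimulate DEAH helicases, 3 rose and 3 fell. Pinx1 (1.77) and Gpatch1 (1.2) were among the rises, and Gpatch11 (-1.31) and Sugp1 (-1.25) among the falls.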

How the data were processed

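The submitters' processing notes name the mm10 genome and, in no stated order, HISAT2, HTSeq, limma, edgeR, Trimmomatic 0.36, SAMtools and FastQC; strand setting and multi-mapping reads are not described in the sources used. What the authors deposited is a normalised signal (scaled CPM), in 1 table per RNA kind, with library totals of 968768 to 1052767. The plan assumed plain CPM, and the same test on log2 values was kept. Depth was inferred from the step between values, of which 100% were whole multiples within 0.01 of a read.

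Groups came from the sample titles, which name the input samples, while their description field calls them ribosome-bound. All 20 libraries were used. In limma 3.58.1 (R 4.3.3), log2(value + 1) was fitted per table over all times, with a mean-variance trend, for genes at 1 or more in at least 2 libraries, which kept every listed gene. The difference between RNA kinds was an interaction over 20 libraries. Tests were two-sided. Data were simulated with the ribosome-bound 8 h design (7543 genes), with 100 genes changed by a log2 of 1 and 100 by 1.5. Of these, 32% and 54% were recovered, and 3 of 89 calls were false. In the data 3173 genes passed, so the adjusted threshold was looser there and this recovery is not that of the comparison itself.

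Helicases and gene lists were chosen with earlier results of these data known. Any helicase may be named in its role group. At 8 h full statistics went to the 8 largest rises and falls on ribosomes, and 4 each way otherwise, with a table mean of at least 20 and no overlap of libraries; at 2, 4 and 6 h to the 3 largest each way; and to a panel of 14 helicases. Partner lists give at most 2 genes each way by p. Other values are descriptions. GENCODE vM21 gave gene positions, 3′ UTRs, GC content and lengths, and matched 8103 of 8114 IDs and all 45 helicases. Alternatives were other pseudocounts (0.25 and 5), filters, median centring, a replicate block, length and GC correction, only the times compared, and each library left out.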

Additional observations from a re-analysis of the deposited data

Results flagged for a closer look

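For 6 helicases the change from 0 to 8 h on ribosomes differed from the change in total RNA of the same times, by a test of the difference itself in limma over all genes in both tables. On the log2 scale the ribosome-bound change minus the total RNA change was 2.25 for Ddx60, 1.61 for Ddx39, 1.24 for Ddx3x, -0.95 for Ddx11, -1.21 for Ddx19a and -1.27 for Dhx15. All 6 passed again with the length and GC correction, at 1.73, 1.79, 0.79, -0.84, -1.16 and -1.55 in the same order. Ddx3x and Ddx19a were called with each of 8 libraries left out. Ddx60 was in the ribosome-bound table only through its later libraries (0 h values of 5.36 and 5.46), which favours a rise there and so this difference. The groups of 2 libraries were too small for a check of single outlying libraries.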

How the results depend on the processing

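No alternative turned the direction of a helicase that passed. Among values for named helicases under the alternatives, 525 kept their side of the threshold, 75 lost it, 6 gained it and 6 changed sign. The sign changes were those of Ddx46 on ribosomes at 8 h, at -0.31 with the length and GC correction (with or without the replicate block), -0.12 without the first 0 h library and -0.26 without the second 8 h library (up to 0.32 over the fits without 1 library), and of Ddx4, at -0.30 with that correction in both fits. The count at 2 h on ribosomes was 0 with the replicate block, with the length and GC correction, with both, and with only the times compared. With only the times compared it was 2 at 4 h on ribosomes and 0 in total RNA at 8 h. Over fits that left out 1 library the counts ran from 0 to 1 at 2 h, 2 to 6 at 4 h, 7 to 11 at 6 h and 11 to 19 at 8 h on ribosomes, from 0 to 4 in total RNA at 8 h, and from 4 to 8 for the difference between RNA kinds. They were 0 in total RNA at 2, 4 and 6 h. Without the first 4 h ribosome-bound library, an alternative chosen after seeing the data, they were 14 at 6 h and 20 at 8 h. The planned test of recovered reads in edgeR was not run. Samples share a letter across groups but their deviations from the group means correlated at -0.107 to 0.115, so the letters were not taken as pairs. With the replicate block 19 helicases passed at 8 h on ribosomes (7 up, 12 down), Ddx19b (adjusted p = 0.0527) and Ddx25 (adjusted p = 0.0544) being lost. Among all genes, 461 passed at 4 h on ribosomes without the first 4 h library and 572 with only the times compared, against 1186, and 52 passed in total RNA at 8 h without the first 0 h library, against 314. With 2 libraries per group, a helicase that did not pass may have changed. In the simulation 32% of log2 changes of 1 and 54% of those of 1.5 were recovered at 8 h on ribosomes. Far fewer genes changed there than passed in the data, so these shares do not give the recovery in this comparison.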
